A study of Mus musculus with 18 samples.

Results

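A medulloblastoma (MB) from an Ndp knockout, Ptch heterozygous mouse (NdpKO;Ptch+/-) was compared with an MB from a Ptch heterozygous mouse with intact Ndp (Ptch+/-), each profiled on 1 Illumina MouseWG-6 v2.0 BeadChip array. The pair was taken from the 18 arrays of the series by their titles, and the other 16 arrays hold granule neuron progenitors (GNPs) of 4 genotypes, with 4 arrays each. A difference is given throughout as the log2 level in the NdpKO;Ptch+/- tumor minus that in the Ptch+/- tumor. Of the 45281 probes on the array, 11443 were at a log2 level of 5 or above in at least 1 tumor and are called measured. These measured probes cover 7149 genes, each represented in counts and gene lists by its probe with the highest mean over both tumors, while the genes of largest difference are given by the probe with the largest difference. With 1 tumor of each genotype there is no replicate check and no test of the genotype, so differences are given as sizes and set beside the spread between replicate GNP arrays.

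Norrin, the secreted protein encoded by the X-linked gene Ndp, binds the receptor Fzd4 on endothelial cells together with the co-receptor Lrp5 and the tetraspanin Tspan12, and this activates beta-catenin signalling that maintains the retinal and cerebellar vasculature and its barrier. Ptch1 encodes the Sonic hedgehog receptor that holds Smo in check, and mice with 1 functional Ptch1 copy develop MB from cerebellar GNPs. The comparison of these tumors addresses how the RNA of an established Ptch+/- MB differs when Norrin has been absent throughout development.

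The NdpKO allele carries a lacZ-containing cassette that disrupts Ndp and was kept on a mixed background, while Ptch+/- mice were kept on C57BL/6. The Ptch+/- tumor and the wild-type and Ptch+/- GNPs were labelled as C57Bl/6, the NdpKO GNPs as mixed, and the NdpKO;Ptch+/- tumor carried no strain label, so the labels do not settle whether the backgrounds of this pair matched. The study's methods state that compound mutants and their controls came from a shared breeding cohort. According to the study's crosses NdpKO;Ptch+/- mice are Ndp-/y males, whereas controls are of both sexes. All 18 arrays, tumors included, carry an age label of postnatal day 6, and that age applies to the GNPs by the sampling protocol. The study took MB as dissected cerebellar tumor with clean margins and, in its survival series, followed mice until advanced tumor symptoms, so the age label of the tumors is doubtful. GNPs had been purified from the cerebellum by percoll gradient and pre-plating, while the tumors were whole tissue. In such bulk RNA, fewer cells of a type and less RNA per cell cannot be told apart. The array titled NdpKO;Ptch+/- GNP replicate 2 has the genotype field of an Ndp knockout. It was grouped by its title. The level of Prm1, a sperm protamine gene, was 9.79 to 10.66 on that group's arrays and 10.13 to 10.51 on the Ptch+/- GNP arrays, but 4.11 to 4.13 on the wild-type and NdpKO GNP arrays. It was 12.18 in the Ptch+/- tumor and 12.16 in the NdpKO;Ptch+/- tumor. Prm1 was thus high on every array grouped as Ptch+/- or NdpKO;Ptch+/-, tumors included, and at background on all others. The array of disagreeing labels read 9.92, as the Ptch+/- groups did and unlike the NdpKO GNPs.

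The labels of the tumors could be checked only in part. The Ndp probe was at background everywhere, with 4.11 in both tumors and 4.10 to 4.13 on the GNP arrays, so the knockout cannot be seen on this platform. Ptch1 was at 8.69 in the Ptch+/- tumor and at 7.01 in the NdpKO;Ptch+/- tumor, a difference of -1.67. The GNP arrays read 8.56 to 8.70 for wild type, 7.63 to 7.94 for Ptch+/-, 8.65 to 8.97 for NdpKO and 7.80 to 8.23 for NdpKO;Ptch+/-. The Ptch+/- tumor was therefore at the level of GNPs with 2 Ptch1 copies, and the NdpKO;Ptch+/- tumor was below all 16 GNP arrays. Eif2s3y, a Y-linked translation initiation factor subunit, was at 8.26 in the Ptch+/- tumor and at 4.11 in the NdpKO;Ptch+/- tumor, and at 8.17 to 8.79 on 15 of the 16 GNP arrays. The remaining one, Ptch+/- GNP replicate 3, read 4.11. Xist, the RNA that coats the inactive X chromosome, was at background in both tumors, with 4.13 and 4.14, and reached 8.08 in Ptch+/- GNP replicate 3 alone. The NdpKO;Ptch+/- tumor thus had neither the Eif2s3y signal nor Xist. The first of these goes against the male genotype implied by the study's crosses. It rests on 1 probe, since the Y-linked genes Kdm5d and Uty were at background on every array, at 4.27 or less.

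The levels of the paired tumors followed each other closely (Pearson r = 0.95 across the 10106 probes measured in both, which are probes of the same arrays and not independent), yet the tumors differed by more than any replicate GNP pair. The median size of a difference was 0.364 over measured probes, against 0.141 to 0.276 in the 24 pairs of replicate GNP arrays. A difference of 1 or more, which is a 2-fold change, was seen for 13.9% of measured probes in the tumor pair and for 0.966% to 8.43% in the GNP pairs, with a median of 4.25%. Replicate Ptch+/- GNPs, the group nearest to the Ptch+/- tumor in genotype, gave 0.966% to 4.41%, and NdpKO;Ptch+/- GNPs gave 2.53% to 8.43%. The GNPs were purified cells of a single age, and the spread between tumors of 1 genotype was not measured here.

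**Figure D1:**
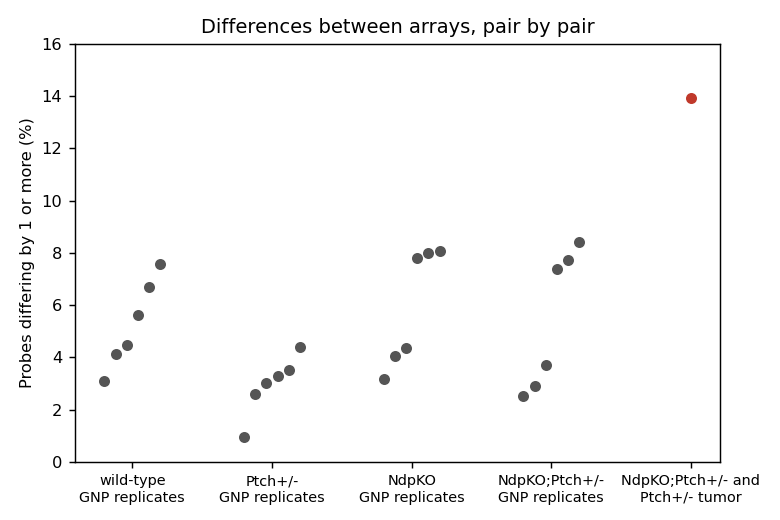
Each point is a pair of arrays, and the vertical axis gives the percentage of probes that differ by 1 or more on the log2 scale among those at 5 or above on at least 1 array of the pair. The 24 GNP replicate pairs lie between 0.966% and 8.43%, and the tumor pair lies at 13.9%.

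In all, 784 probes (6.85% of those measured) were higher by 1 or more in the NdpKO;Ptch+/- tumor and 811 (7.09%) were lower. On the gene level 473 genes (6.62%) were higher and 496 (6.94%) lower, and the median difference over genes was -0.01. The split between directions was thus nearly even. 304 probes differed by 2 or more and 72 by 3 or more, while 62.4% stayed within 0.5. Of the probes past 1, 880 were measured in both tumors and 715 in only 1 of them. For 1258 probes (11.0% of those measured, and 78.9% of those past 1) the difference was also larger than the largest difference between any replicate GNP arrays for that probe, 612 of them higher and 646 lower. Probes at background on all GNP arrays have almost no such spread, for example 0.02 for Krt12 and 0.01 for Tecta. A difference of 1 exceeds it by default, so the count says little about those probes. At the edges, the dimmest measured probe reached 5.0002 in its brighter tumor and the brightest probe left out 4.9998. The differences nearest to the limit were 1.0005 and -1.0001 inside it and 0.9991 and -0.9989 outside it.

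Where each tumor stood against the GNPs was counted for each direction. The direction itself fixes which tumor is the higher of the pair, so only the position of the pair is informative. Of the 784 higher probes, 216 were below the range of all 16 GNP arrays in the Ptch+/- tumor and within it in the NdpKO;Ptch+/- tumor, and 192 were within it in the Ptch+/- tumor and above it in the NdpKO;Ptch+/- tumor. Of the 811 lower probes, 264 were above the range in the Ptch+/- tumor and within it in the NdpKO;Ptch+/- tumor, and 170 were within it in the Ptch+/- tumor and below it in the NdpKO;Ptch+/- tumor. Both tumors were above the range for 114 of the higher and 174 of the lower probes, and both were below it for 136 and 66.

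**Figure D2:**
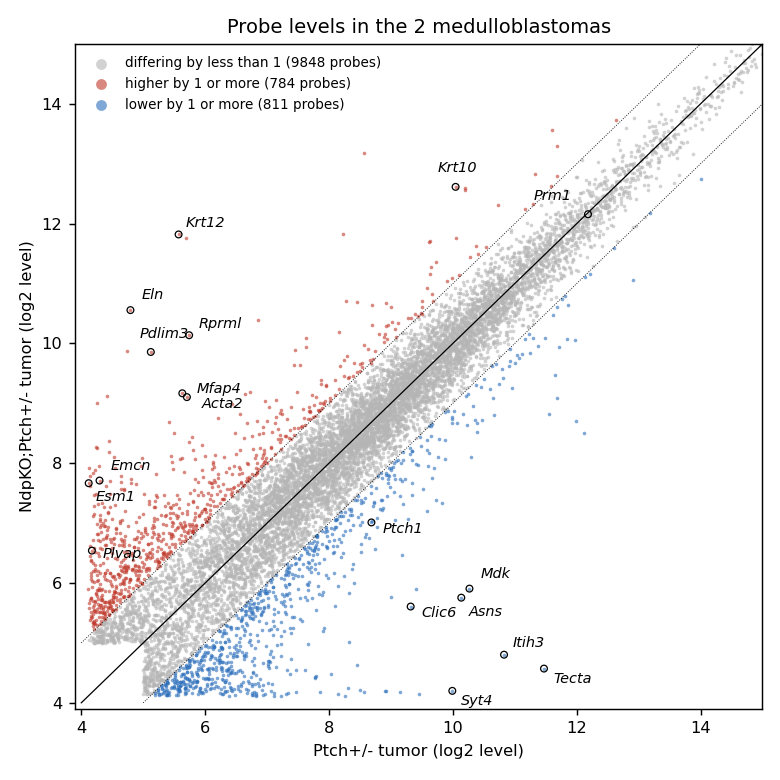
Log2 level of each of the 11443 measured probes in the Ptch+/- tumor (horizontal) and the NdpKO;Ptch+/- tumor (vertical), with a solid line at equality and dotted lines at a difference of 1. The 784 red probes are higher and the 811 blue probes lower by 1 or more in the NdpKO;Ptch+/- tumor, and circles mark genes described in the text.

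The genes with the largest excess in the NdpKO;Ptch+/- tumor included keratins, contractile and matrix genes. Krt12, a type I keratin best known from corneal epithelium, was at 5.57 in the Ptch+/- tumor and 11.82 in the NdpKO;Ptch+/- tumor, a 76.0-fold difference. It was at 4.10 to 4.13 on all 16 GNP arrays, and its other measured probe differed by 6.08. Krt10, a keratin of the same type, was 5.94-fold higher, at 10.04 and 12.61 (GNPs 10.29 to 10.89). Pdlim3, an actin-associated LIM protein of muscle, was 26.6-fold higher, at 5.12 and 9.86, with the GNPs between them at 6.41 to 8.67. Rprml, a reprimo-like gene, was 21.1-fold higher, at 5.74 and 10.14, and at 4.17 to 4.79 in GNPs. The tumors thus lay on opposite sides of the GNPs for Pdlim3, while both exceeded the GNPs for Krt12 and Rprml.

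Another group of high genes was close to GNP levels in the NdpKO;Ptch+/- tumor and low in the Ptch+/- tumor. Acta2, smooth muscle actin, was at 5.71 in the Ptch+/- tumor and 9.10 in the NdpKO;Ptch+/- tumor, against 7.85 to 9.46 in GNPs. Its second measured probe differed less, by 1.09. Cygb, a globin of fibroblast-like and stellate cells, was at 5.50 and 8.50 (GNPs 8.65 to 9.80). Gng3, a neuronal G protein gamma subunit, was at 5.79 and 8.43 (GNPs 8.69 to 9.45). Igfbp4, which binds insulin-like growth factors, was at 5.74 and 8.35 (GNPs 8.59 to 9.85). For these 4 genes the NdpKO;Ptch+/- tumor was within or just below the GNP range and the Ptch+/- tumor far below it. Mfap4, a microfibril-associated glycoprotein of elastic fibres, was at 5.63 and 9.17, both below the 11.60 to 12.73 of GNPs. Peg3, an imprinted zinc finger gene, was at 6.85 and 10.40, on either side of the 8.57 to 9.31 of GNPs.

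6 further genes stood out as measured in the NdpKO;Ptch+/- tumor alone, and their fold is a lower bound taken against a level of 5. Eln, the elastin gene, was at 4.79 in the Ptch+/- tumor and 10.56 in the NdpKO;Ptch+/- tumor, at least 47.1-fold higher, with 8.06 to 9.49 in GNPs. Mxra7, a matrix-remodelling associated gene, was at least 29.4-fold higher, and its second probe differed by 2.21. Flnc, muscle filamin, was at least 17.5-fold higher, with 4.18 to 5.16 in GNPs. Pou4f1, a POU transcription factor of sensory and other brain neurons, was at 4.25 and 9.01 with GNPs at 4.10 to 4.13. Myod1, the skeletal muscle determination factor, was at 4.26 and 8.26 with GNPs at 4.11 to 4.17. Zfp385b, a zinc finger gene, was at 4.45 and 8.38 with GNPs at 5.65 to 6.87. Pou4f1 and Myod1 were thus above 5 in the NdpKO;Ptch+/- tumor and on none of the other arrays.

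Among genes at 5 or above in both tumors, those lowest in the NdpKO;Ptch+/- tumor relative to the Ptch+/- tumor were of varied function. Mdk, the heparin-binding growth factor midkine, was at 10.27 in the Ptch+/- tumor and 5.91 in the NdpKO;Ptch+/- tumor, 20.6-fold lower, where all GNPs were at 10.52 to 11.07. The brighter Mdk probe had 11.99 and 8.70, a difference of -3.29, and 12.16 to 12.55 in GNPs. The NdpKO;Ptch+/- tumor was thus below every other array with both probes. Asns, asparagine synthetase, was 20.8-fold lower, at 10.14 and 5.76, on either side of the 8.0 to 8.74 of GNPs. Clic6, a chloride channel gene typical of the choroid plexus, was at 9.32 and 5.61, but GNP replicates alone differed by up to 3.02 for it. Kank1, a cytoskeletal adaptor, was at 9.41 and 5.91 (GNPs 5.81 to 7.26). Tgm2, a transglutaminase that crosslinks proteins, was at 9.01 and 5.76 (GNPs 5.13 to 8.23). Slc6a11, a GABA transporter of astrocytes, was at 8.33 and 5.01 (GNPs 4.16 to 4.32). Slc25a18, the mitochondrial glutamate carrier, was at 11.55 and 8.83 (GNPs 7.06 to 9.20). Spr, sepiapterin reductase, was at 7.91 and 5.20 (GNPs 5.42 to 6.59). For each of these genes except Mdk the Ptch+/- tumor was above every GNP array.

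6 genes were measured in the Ptch+/- tumor alone with the brightest signals. Tecta, a tectorial membrane protein of the inner ear, was at 11.47 in the Ptch+/- tumor, 4.57 in the NdpKO;Ptch+/- tumor and 4.10 to 4.12 in GNPs, at least 88.8-fold lower in the NdpKO;Ptch+/- tumor. Itih3, which binds hyaluronan in the matrix, was at 10.83 and 4.80, and its second probe differed by -4.01. Lcn2, the iron-siderophore binding lipocalin, was at 9.14 and 4.18, with 4.11 to 4.18 in GNPs. Syt4, a synaptotagmin, was at 9.99 and 4.20, and Egr3, an immediate-early transcription factor, at 8.92 and 4.20. For both of these the GNPs, at 9.17 to 10.51 and 5.34 to 7.66, were above the NdpKO;Ptch+/- tumor. Xlr4a, an X-linked lymphocyte-regulated gene, was at 9.46 and 4.15, but differed by up to 5.01 between replicate GNP arrays.

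**Figure D3:**
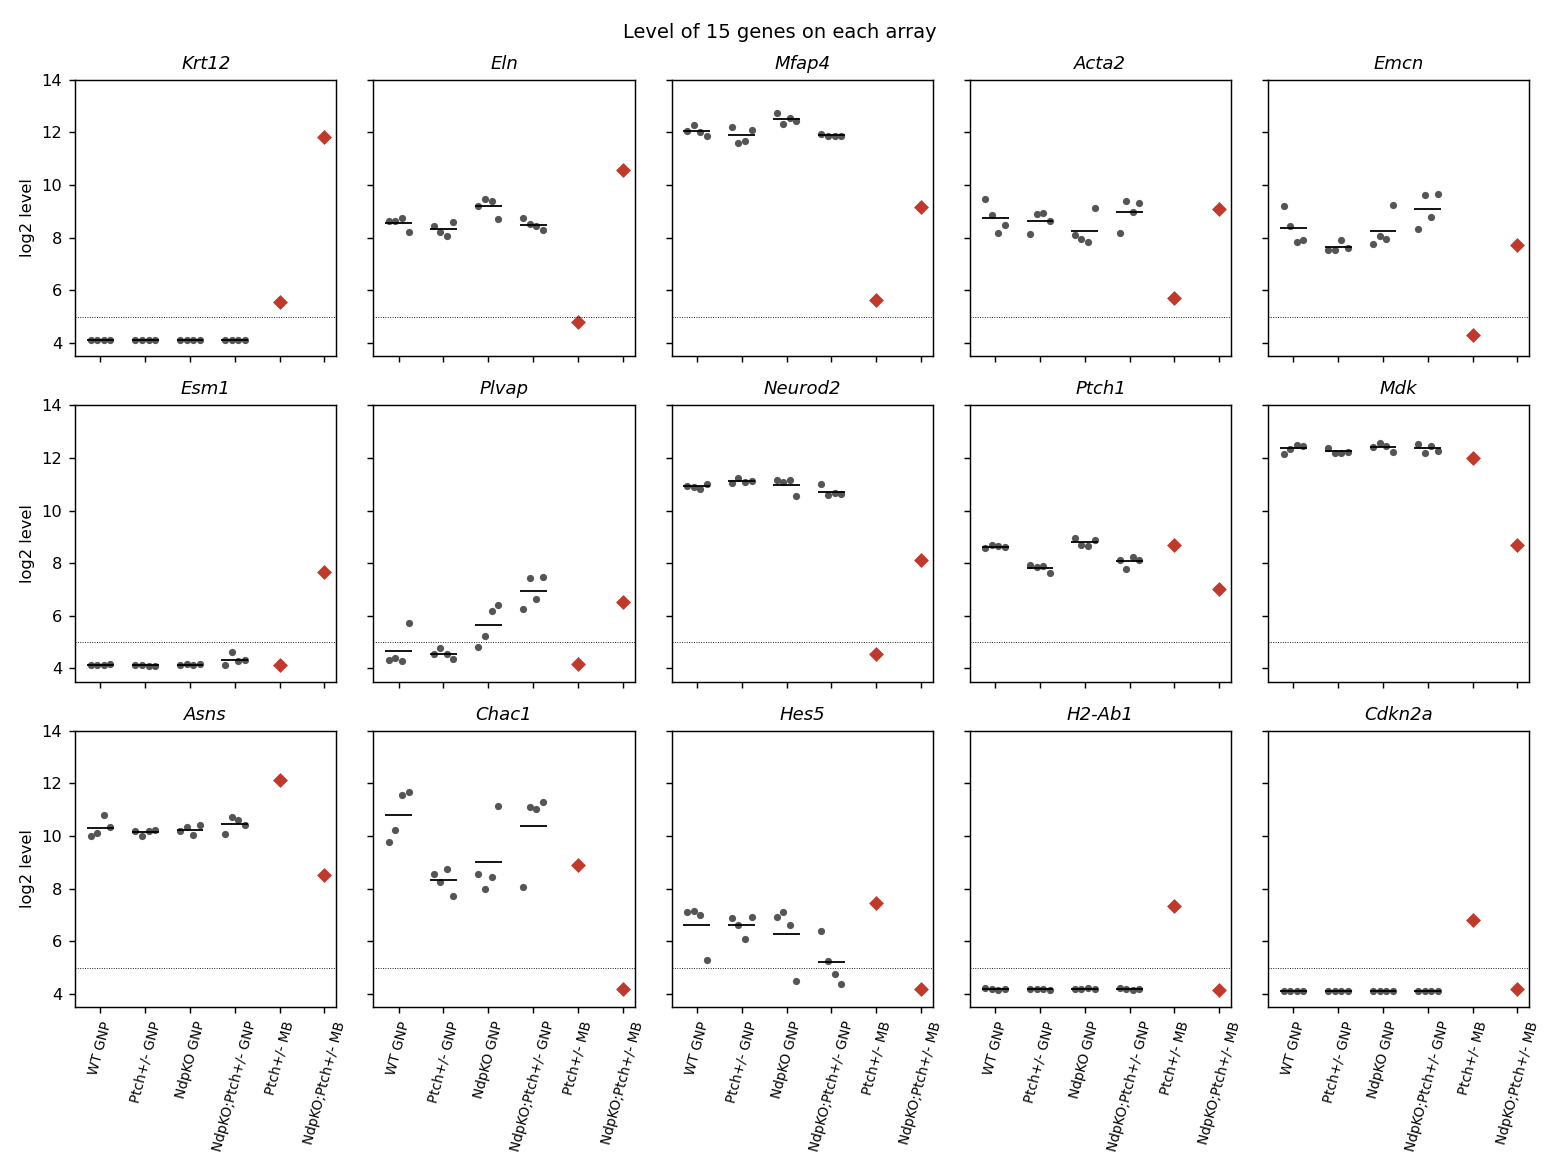
Log2 level on every array for 15 genes, with GNPs in grey (4 arrays per genotype, bar at the mean), the single tumors as red diamonds and a dotted line at 5, the level that counts as measured. The NdpKO;Ptch+/- tumor is above the Ptch+/- tumor for Krt12 through Neurod2 and below it for Ptch1 through Cdkn2a.

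On this pair of arrays, the vascular genes that the study assayed in this model did not all move together. The study first reported Esm1, Plvap and Emcn as up-regulated in its own array profiling of NdpKO;Ptch+/- against Ptch+/- tumors, on the same platform. By qRT-PCR, it then reported these and also Pecam1 and Angpt2 as higher in NdpKO;Ptch+/- tumors. Immunostaining in the study also showed PLVAP and Endomucin protein. Esm1, a secreted proteoglycan of sprouting endothelial tip cells, was at 4.12 in the Ptch+/- tumor and 7.67 in the NdpKO;Ptch+/- tumor, at least 6.35-fold higher, and did not exceed 4.62 on any GNP array. Emcn, the endothelial sialomucin endomucin, was at 4.29 and 7.71, at least 6.55-fold higher, with 7.52 to 7.91 in Ptch+/- GNPs and 8.32 to 9.65 in NdpKO;Ptch+/- GNPs. Plvap, which forms the diaphragms of leaky capillaries, was at 4.17 and 6.54, at least 2.91-fold higher, with 4.36 to 4.77 in Ptch+/- GNPs and 6.26 to 7.47 in NdpKO;Ptch+/- GNPs. The differences of Esm1, Emcn and Plvap exceeded the largest between replicate GNP arrays, with 2.37 against 1.62 for Plvap. With its 4.17 set to 5 the Plvap difference was 1.54. The 1.62, between NdpKO GNP arrays at 4.81 and 6.42, also involves a value below 5 and was not floored, so it is no match for the 1.54. Angpt2, a ligand that destabilises vessels, was at 6.33 and 6.26, a difference of -0.07, and Pecam1, a general endothelial adhesion molecule, was at background in both at 4.17 and 4.18. A probe at background gives no direction, so only Angpt2 departed from Esm1, Emcn and Plvap here. The study chose these 5 genes with knowledge of its own tissue, Esm1, Plvap and Emcn from array data of such tumors. The direction of the group is therefore not independent evidence.

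Taken as a list, general endothelial markers gave no excess of that size. Of 28 endothelial identity genes with a probe, 10 were measured, 2 of them higher by 1 or more and 1 lower, with a median of 0.17 against -0.01 over all genes. For this and the lists below, the shares over all measured genes were 6.62% higher and 6.94% lower. Cldn5, the tight junction protein of brain endothelium, was at 8.64 and 8.18, Flt1, a VEGF receptor, at 6.90 and 6.72, and Vwf, von Willebrand factor, at 7.19 and 7.44. Sox18, an endothelial transcription factor and the lower member, was at 11.87 and 10.63. The highest difference of the list was that of Emcn, 3.42, and no other member exceeded the GNP replicate range by a difference of 1 or more. Over the whole list the mean level was 5.38 in the Ptch+/- tumor and 5.54 in the NdpKO;Ptch+/- tumor, below the 5.93 to 7.63 of GNP arrays, and 20 and 18 of the 28 markers were below 5, Pecam1 among them. The part of endothelial cell number in the values of Esm1, Emcn and Plvap was not tested.

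Among 10 measured genes of the blood-brain barrier 2 were lower and 2 higher, with a median of -0.46. Slco1c1, the thyroxine transporter of brain capillaries and a chromosome 6 gene, was at 6.75 and 4.14, and Mfsd2a, a lipid transporter that limits transcytosis, at 6.25 and 4.93. Apcdd1 and Axin2, which respond to beta-catenin signalling, were at 9.71 and 8.79 and at 7.89 and 7.76. Slc2a1, the glucose transporter of barrier endothelium, was at 9.56 and 9.11. Tjp1, a tight junction scaffold, went the other way at 4.20 and 5.54. In the list of endothelial activation and angiogenesis 5 of 11 were higher and 1 lower, with a median of -0.07 that turned to 1.42 over the genes at 6 or above. Besides Esm1 and Plvap these were Cd93, at 4.69 and 6.51, Igfbp3, at 5.49 and 7.17, and Vegfa, the main angiogenic growth factor, at 7.72 and 9.14, while Vcam1, a leukocyte adhesion molecule, was lower at 8.51 and 6.97.

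Some mural cell and basement membrane genes were among the higher ones in the NdpKO;Ptch+/- tumor. Of 16 pericyte and smooth muscle genes with a probe 5 were measured and 3 were higher by 1 or more, with a median of 1.05 (1.96 over those at 6 or above) and none lower. Rgs5, a pericyte marker, was at 4.81 and 7.67, Mylk, myosin light chain kinase, at 5.84 and 6.89, and Acta2 was described above. The mean level over the 16 genes was 4.69 and 5.23, against 5.06 to 5.40 on the GNP arrays, so the lower value of the Ptch+/- tumor lay outside the GNP range. Of 15 measured genes of collagens and basement membrane 5 were higher and 3 lower, with a median of 0.62. Hspg2, perlecan, was at 4.88 and 7.65, Col18a1 at 9.64 and 11.71, Col4a2 at 6.97 and 9.05, Lama5 at 6.13 and 7.99, and Col4a1 at 9.27 and 10.43. These 5 encode basement membrane components. Those that were lower were Col6a1, a microfibrillar collagen of the interstitium (7.92 and 5.25), Lamb2, a laminin chain (6.19 and 4.41), and Sparc, a collagen-binding matrix protein (11.48 and 10.08).

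Genes of elastic fibres and other matrix split into 3 higher and 3 lower of 13 measured, with a median of 0.20. Beside Eln and Mfap4, Ccn2, a matricellular protein, was higher at 6.64 and 9.15. Timp1, an inhibitor of metalloproteinases, was lower at 7.09 and 4.32, Fbln1, fibulin 1, at 6.91 and 5.21, and Tnc, tenascin C, at 6.06 and 4.40. Of 7 measured fibroblast and meningeal genes Mgp, matrix Gla protein, was at 7.44 and 9.64 and Igf2 at 10.73 and 12.31, while Dcn, decorin, was at 8.80 and 8.71 and Pdgfra at 11.08 and 11.29. The mean over 21 such markers was 5.50 and 5.59, with 5.54 to 5.95 in GNPs, and 14 and 15 of them were below 5.

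Growth factor systems showed a one-sided pattern. In the insulin-like growth factor system 4 of 11 measured genes were higher by 1 or more and none lower, with a median of 0.73. Over all measured genes 6.62% were higher by 1 or more and 6.94% lower. Igf2, a fetal growth factor, was 2.99-fold higher and within the GNP range in the NdpKO;Ptch+/- tumor. Of the binding proteins, Igfbp7 was at 10.05 and 11.76, Igfbp3 at 5.49 and 7.17, and Igfbp4 as above. The receptor Igf1r was at 9.45 and 9.83 and the ligand Igf1 at 7.26 and 6.72. In the TGF-beta and BMP pathway 3 of 9 were higher, with a median of 0.67. Chrd, the BMP antagonist chordin, was at 8.17 and 10.20, Tgfbi, a TGF-beta induced matrix protein, at 6.09 and 7.67, and the receptor Tgfbr1 at 9.02 and 10.36.

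**Figure D4:**
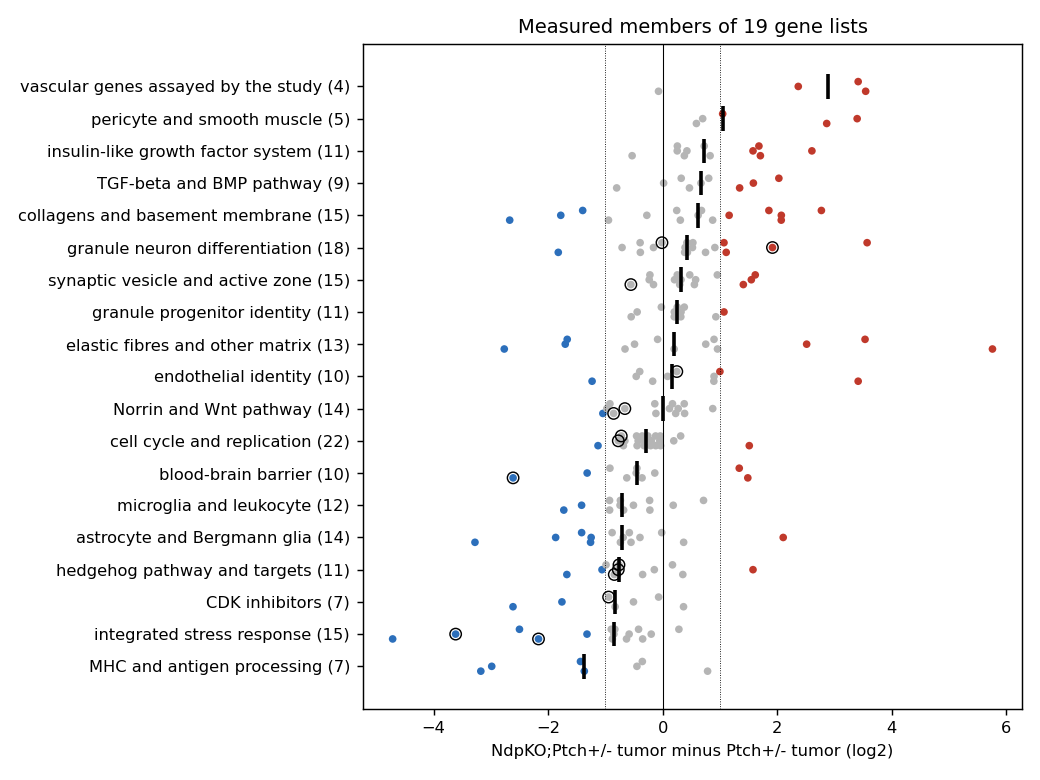
Differences (NdpKO;Ptch+/- minus Ptch+/- tumor, log2) of the measured members of 19 gene lists, with the number of members in parentheses, black bars at the median, dotted lines at 1 and -1, red and blue points past them, and rings around chromosome 6 genes. Medians run from 2.89 for the vascular genes assayed by the study to -1.37 for MHC and antigen processing. Values below 5 are not floored, and both of these lists hold genes measured in 1 tumor alone.

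Most measured genes of the hedgehog pathway, which drives tumors of this model, were lower in the NdpKO;Ptch+/- tumor, though few by 1 or more. Of 11 measured genes 2 were lower by 1 or more and 1 was higher, by 1.58, with a median of -0.76. Beside Ptch1, Bcl2, an inhibitor of apoptosis, was lower at 5.39 and 4.33, but taken against 5 it would not pass 1. Ccnd1, the D-type cyclin induced by Sonic hedgehog, was at 12.96 and 11.97, a difference of -0.99, where GNPs were at 11.06 to 12.02, and its other measured probes differed by -0.77 and -1.41. Ccnd2 was at 13.66 and 12.81, Foxm1 at 9.42 and 8.65 and the transducer Smo at 7.78 and 7.02, and these last 3 genes lie on chromosome 6, described below. Without them the median was -0.25. Gli2, a transcription factor of the pathway, was at 11.39 and 11.24 and the inhibitor Sufu at 8.11 and 7.76. The probes of Gli1 (4.11 in both tumors), Mycn (4.10 and 4.11) and Atoh1 (4.12 and 4.11) were at background on every array, GNPs included, so these genes cannot be judged here.

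Norrin receptor components and Wnt pathway genes differed little. Of 14 measured genes only Nkd1, a feedback inhibitor, passed 1, at 10.70 and 9.65, and the median was 0.00. Tspan12 was at 7.29 and 6.62, a difference of -0.66, within the GNP replicate differences of up to 1.12 and on chromosome 6. The probes of Fzd4 (4.12 and 4.11) and Lrp5 (4.11 and 4.14) were at background in tumors and GNPs. Ctnnb1, beta-catenin, was at 11.77 and 11.89. In the Notch, Hes and Id group 1 of 7 measured genes was higher and 2 were lower, with a median of 0.25 (0.01 with the mean over a gene's probes). Hes5, a Notch target of neural stem cells and glia, was at 7.47 and 4.19, and Nrarp, another Notch target, at 8.31 and 7.06. Id1, a BMP-induced inhibitor of differentiation factors that is also abundant in endothelium, was at 4.62 and 6.84, with 7.91 to 8.20 in Ptch+/- GNPs. Hes1 was at 5.82 and 5.78.

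Cell cycle genes were close between the tumors. Of 22 measured genes 1 was higher and 1 lower by 1 or more, none beyond the GNP replicate range, with a median of -0.29. Top2a was at 10.76 and 10.44, Cdk1 at 9.96 and 9.84 and Mcm5 at 12.24 and 12.20. Those past 1 were Ccne2, cyclin E2, at 6.40 and 5.27, and Pcna, the replication clamp, at 4.75 and 6.26. Of the 7 inhibitors of cyclin-dependent kinases none was higher and 2 were lower, with a median of -0.83. Cdkn2a, which encodes p16 and p19Arf, was at 6.79 and 4.18, and its neighbour Cdkn2b at 5.93 and 4.17. For Cdkn2a all 16 GNP arrays were at 4.09 to 4.11, so the Ptch+/- tumor alone had signal. Among p53 targets Phlda3 was at 6.70 and 4.22, Cdkn1a at 10.12 and 9.29 and Mdm2 at 10.26 and 9.92, and no other of the 9 measured passed 1. The median of the 9 was -0.34, and -0.66 with the mean over a gene's probes.

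Genes of the integrated stress response were lower in the NdpKO;Ptch+/- tumor nearly throughout. Under amino acid shortage or unfolded protein the factor Atf4 induces genes for amino acid synthesis and uptake through a C/EBP-ATF response element. Of 15 measured members 5 were lower by 1 or more and none higher, with a median of -0.85, and 14 of the 15 were below 0. Of all measured genes 6.94% were lower by 1 or more, and the median difference over all was -0.01. Chac1, a glutathione-degrading enzyme, was at 8.91 and 4.19, Nupr1, a stress-induced nuclear protein, at 8.33 and 5.83, Mthfd2, a mitochondrial folate enzyme, at 11.65 and 9.48, and Atf5 at 9.99 and 8.67. The brighter Asns probe gave 12.12 and 8.51, and the GNPs, at 9.99 to 10.79, lay between the tumors. Atf4 itself was at 11.04 and 11.33. GNPs were spread from 7.72 to 11.67 for Chac1, and the largest difference between replicates was 3.22, still below the -4.72 between the tumors in size. Asns and Mthfd2 lie on chromosome 6. Without both the median was -0.84.

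The promoters of the 3 members with the largest differences that hold the element are shown because they carry the sequence through which this pathway is known to act. The letters searched were TGATGNAA and, on the other strand, TTNCATCA, in the 300 bases around each start site that the RefSeq table (GRCm38.p6) gives as its promoter. They occur in 3.97% of all 32851 such promoters and, of the 15 measured members, in those of Asns, Chac1, Nupr1 and Vldlr. The promoters lie at chr6:7693160-7693459 (minus strand, Asns), chr2:119350992-119351291 (plus strand, Chac1) and chr7:126625421-126625720 (minus strand, Nupr1). Capitals mark the element, which starts 23, 193 and 110 bases before the start site.
Asns: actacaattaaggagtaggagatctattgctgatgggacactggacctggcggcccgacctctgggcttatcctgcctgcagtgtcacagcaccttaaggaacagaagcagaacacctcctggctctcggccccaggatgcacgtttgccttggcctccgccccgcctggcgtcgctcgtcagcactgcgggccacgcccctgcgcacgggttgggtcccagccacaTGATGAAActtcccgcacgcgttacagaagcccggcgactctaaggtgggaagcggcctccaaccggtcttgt
Chac1: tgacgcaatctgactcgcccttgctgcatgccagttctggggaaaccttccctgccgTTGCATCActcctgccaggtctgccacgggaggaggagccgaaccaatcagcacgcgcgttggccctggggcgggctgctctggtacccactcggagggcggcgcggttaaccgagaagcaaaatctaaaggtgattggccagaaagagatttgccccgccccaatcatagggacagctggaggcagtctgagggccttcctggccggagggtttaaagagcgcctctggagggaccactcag
Nupr1: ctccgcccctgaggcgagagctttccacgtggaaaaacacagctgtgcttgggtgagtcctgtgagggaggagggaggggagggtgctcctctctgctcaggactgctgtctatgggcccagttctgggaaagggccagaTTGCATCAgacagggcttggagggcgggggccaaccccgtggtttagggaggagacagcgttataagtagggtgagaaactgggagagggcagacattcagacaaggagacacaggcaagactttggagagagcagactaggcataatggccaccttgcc
A match describes these letters only, and neither binding nor promoter use was measured.

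Antigen presentation genes included several large deficits in the NdpKO;Ptch+/- tumor. Of 16 genes of MHC and antigen processing with a probe 7 were measured. Of these 4 were lower and none higher by 1 or more, with a median of -1.37 and a highest difference of 0.79. Among all measured genes 6.94% were lower by 1 or more. H2-Ab1, a class II chain, was at 7.34 and 4.16, Cd74, the class II invariant chain, at 7.11 and 4.12, H2-Eb1 at 5.57 and 4.13, and H2-T23, a nonclassical class I gene, at 7.36 and 5.99. H2-Ab1 and Cd74 did not exceed 4.22 on any GNP array, so these class II probes were above 5 in the Ptch+/- tumor only. Like H2-Eb1, they counted as measured through that tumor alone. Taken against 5, H2-Eb1 would not pass 1, and the list median was not recomputed with that floor. The class I genes H2-D1 (8.44 and 7.99) and B2m (11.00 and 10.65) differed less. The mean level of 18 microglia and leukocyte markers was 7.23 and 6.80, both above the 4.58 to 5.59 of the purified GNPs, with 6 markers below 5 in either tumor. Of 12 measured, Fcer1g, an Fc receptor chain, was at 10.40 and 8.67 and C1qb, a complement chain, at 11.37 and 9.96, and the median was -0.71. Cx3cr1 and Csf1r, defining microglial receptors, were at 6.22 and 6.40 and at 6.02 and 6.74. The part of microglial number in the class II values was not tested.

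Of 14 measured astrocyte and Bergmann glia genes 5 were lower and 1 higher, with a median of -0.71. The shares over all measured genes were 6.94% lower and 6.62% higher. Aldoc, a glial aldolase, was at 10.39 and 8.52, the glutamate transporter Slc1a2 at 8.22 and 6.81, and Mt3, a metallothionein, at 9.99 and 8.74, and the transporter Slc1a3 differed by -1.26. Hopx was higher at 7.53 and 9.64, while Gfap was at 9.91 and 10.28 and Aqp4 at 9.19 and 9.17. The mean over 19 markers was 8.26 and 7.67, against 6.99 to 8.20 in GNPs. Granule lineage genes ran slightly the other way. Of 18 measured genes of granule neuron differentiation 4 were higher and 1 lower, with a median of 0.43. Neurod2, a neuronal differentiation factor, was at 4.53 and 8.10, both below the 10.55 to 11.23 of GNPs. Slc17a6, a vesicular glutamate transporter, was at 11.68 and 12.79, and Kcnd2, a potassium channel of granule neurons on chromosome 6, at 4.69 and 6.61. Etv1 was lower at 6.85 and 5.03. Of 11 measured progenitor identity genes, Neurod1 alone passed 1, at 6.95 and 8.02, and Zic1 (12.73 and 13.10), Barhl1 (10.74 and 11.67) and Meis1 (11.53 and 11.51) marked both tumors. Synaptic vesicle genes had a median of 0.32 with 3 of 15 higher, Sv2a at 7.15 and 8.77 among them.

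Chromosome 6 stood apart from all other chromosomes. Over 5792 genes at 6 or above in both tumors, with chromosomes taken from the RefSeq table, the 294 chromosome 6 genes had a median difference of -0.52, and 87.1% of them were below 0. The medians of the 19 other chromosomes, X included, lay between -0.08 and 0.09, with 39.7% to 58.6% of genes below 0. The shift ran along the whole chromosome. With its genes split in order into 5 equal sets, the medians were -0.53, -0.46, -0.57, -0.52 and -0.52. Against the mean of the GNPs of its own genotype, the Ptch+/- tumor was higher by 0.54 on chromosome 6, with 83.0% of genes above 0, and the NdpKO;Ptch+/- tumor by 0.05. On other chromosomes the Ptch+/- tumor was at -0.20 (the X) to 0.10 and the NdpKO;Ptch+/- tumor at -0.05 to 0.09. The 320 chromosome medians of the GNP arrays against the others of their genotype lay between -0.07 and 0.06. DNA copy number was not measured.

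The shift touched the counts. Of 375 measured chromosome 6 genes 78 (20.8%) were lower by 1 or more and 12 (3.20%) higher, against 6.16% lower and 6.80% higher of the 6764 genes placed elsewhere. Of the 10 genes with the largest deficits among those at 5 or above in both tumors, 4 lie on it, namely Asns, Slc6a11, Slc25a18 and Spr, each differing by far more than the chromosome's median. Flnc and Kcnd2 lie on it and were higher in the NdpKO;Ptch+/- tumor. Left out, the chromosome took the count of lower probes from 811 to 680 and that of higher probes from 784 to 766.

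**Figure D5:**
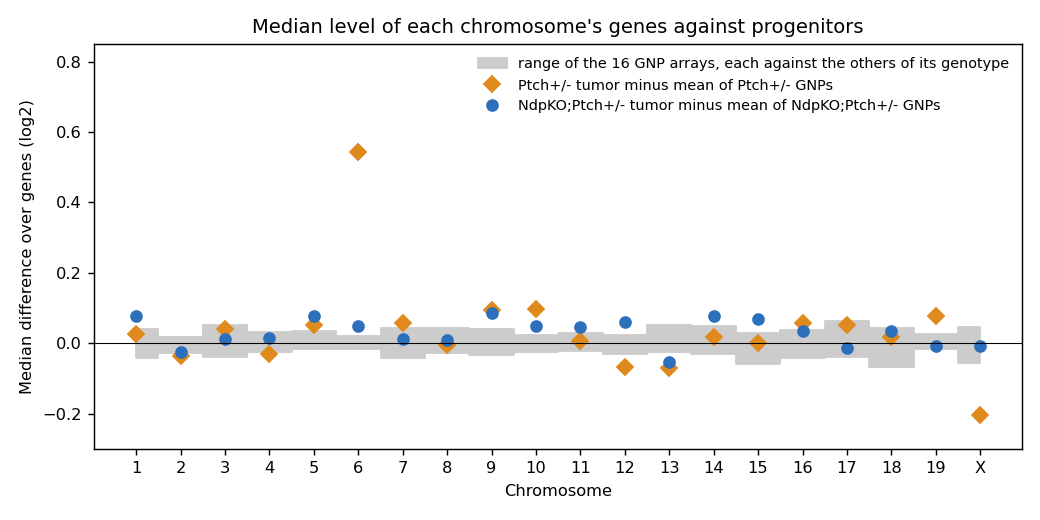
Median log2 difference of each tumor from the mean of the 4 GNP arrays of its own genotype, over the genes of each chromosome at 6 or above in both tumors, with the range of the 16 GNP arrays in grey. The Ptch+/- tumor is at 0.54 on chromosome 6 and at -0.20 on X, and the NdpKO;Ptch+/- tumor stays between -0.05 and 0.09.

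The same genotypes were compared in GNPs, which share no array with the tumor pair. With limma over all 45281 probes and 16 arrays, 7 probes (0.0155%) passed an adjusted p of 0.05 between NdpKO;Ptch+/- and Ptch+/- GNPs, and all 7 were lower in NdpKO;Ptch+/-. Without NdpKO;Ptch+/- replicate 1, an array that lay apart from the other 3 for Chac1 among others, 232 probes passed, 110 higher and 122 lower. The 4 arrays of a genotype were described by the study as separate animals. The genes past 1 in the tumors did not follow the GNP contrast. The GNP difference was above 0 for 43.2% of the 784 probes higher in the NdpKO;Ptch+/- tumor and for 51.7% of the 811 lower, against 47.5% of all measured probes. Across the 10106 probes measured in both tumors Pearson r between the contrasts was -0.04, as a description over probes of the same arrays.

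Plvap was higher in NdpKO;Ptch+/- GNPs by 2.39 ± 0.41 (SE, limma adjusted p = 0.108), with no overlap between the arrays of either genotype, and Emcn by 1.45 ± 0.39 (limma adjusted p = 0.306). Both directions were those of the tumors, and neither gene passed the threshold. Id1 was higher by 1.21 ± 0.32 (limma adjusted p = 0.297). Eln differed by 0.17 ± 0.18, Mfap4 by -0.01 ± 0.13, Mdk by 0.12 ± 0.09 and Krt12 was at background in all GNPs (limma adjusted p from 0.732 to 0.995 for these 4), so the GNP differences of these genes were far smaller than those of the tumors. Neurod2 was lower in NdpKO;Ptch+/- GNPs by 0.40 ± 0.13 (limma adjusted p = 0.373), opposite to the tumors. Chac1 was higher in NdpKO;Ptch+/- GNPs by 2.06 ± 0.81 (limma adjusted p = 0.487), also opposite to the tumors, and its arrays overlapped through NdpKO;Ptch+/- replicate 1 at 8.07. In GNPs with intact Ptch, Emcn averaged 8.35 in wild type and 8.26 in NdpKO, and Plvap 4.68 and 5.65. Id1 was at 8.91 to 9.64 in wild-type and 8.07 to 9.39 in NdpKO GNPs. The contrast of wild-type and NdpKO GNPs was not tested.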

How the data were processed

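Total RNA of MB or GNPs was hybridised to MouseWG-6 v2.0 BeadChips, 1 array a sample. The deposited log2 values had been made by the authors from BeadStudio outputs with the neqc function of limma (background correction by control probes, quantile normalization between arrays), and no scanner intensities were analysed here. Quantile normalization gives each array the same distribution (median 4.13 on all 18), so differences are relative to the other probes of an array. The authors' filter on poorly matching probes was not applied. Probe symbols came from the platform annotation, which gives 34885 of 45281 probes 1 symbol, 18 several and 10378 none. Chromosomes came from RefSeq (GRCm38.p6).

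The tumor difference was the NdpKO;Ptch+/- value minus the Ptch+/- value for probes at 5 or above in at least 1 tumor, and 1 or more counted as past the limit. A gene was represented in counts and lists by its measured probe with the highest mean over both tumors, and a fold against a value below 5 was taken against 5. The yardstick was the largest difference between replicate GNP arrays of a genotype. GNP genotypes were compared with limma 3.58.1 (R 4.3.3) on all 16 arrays with Benjamini-Hochberg adjustment over 45281 probes. Genes named were Ndp, Ptch1 and a set of vascular and pathway genes whatever their values, the 10 highest and 10 lowest differences with both tumors at 5 or above, the 6 brightest each way measured in 1 tumor, and list members with the largest differences. Members and 36 lists were chosen with earlier results of these data known. The limma fit and the counting of differences were tested on simulated data. Alternatives covered the level, the limit, a loess trend, the probe of a gene, each left-out GNP array and the replicate number as a block. Replicate numbers did not pair the GNP samples (correlations of same-numbered arrays -0.29 to 0.05). The number of arrays limits the precision.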

Additional observations from a re-analysis of the deposited data

Results flagged for a closer look

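Among the 66 groups of 4 GNP arrays examined for the genes shown by array, 10 had a single array far from the rest, where chance flags about 1 in 20 groups. In the sex-linked genes it was Ptch+/- replicate 3, with 4.11 for Eif2s3y (next 8.25) and 8.08 for Xist (next 4.13). NdpKO;Ptch+/- replicate 1 was apart for Chac1 at 8.07 (next 11.02), for Neurod2 at 11.02 (next 10.65) and for Prm1 at 10.66 (next 9.92). Wild-type replicate 4 was apart for Plvap at 5.71 (next 4.39) and for Hes5 at 5.27 (next 7.0), and wild-type replicate 2 for Angpt2 at 7.39 (next 7.67). NdpKO replicate 4 was apart for Neurod2 at 10.55 (next 11.07), and Ptch+/- replicate 1 for Mdk at 12.39 (next 12.21).

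Neurod2 differed by 3.57 between the tumors, higher in NdpKO;Ptch+/-, while every NdpKO;Ptch+/- GNP array was below every Ptch+/- GNP array, with means 0.40 apart. That the contrasts differ was not tested, since each tumor genotype has 1 array.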

How the results depend on the processing

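With 1 array a tumor, the tumor differences have no replicate check, and differences between the animals in age, sex-linked signal or tumor makeup cannot be told apart from the Ndp genotype. Probes at background, Ndp, Gli1, Mycn, Atoh1, Fzd4 and Lrp5 among them, say nothing about their genes. Requiring 5 in both tumors left 441 higher and 439 lower probes, and a limit of 1.5 left 347 and 332. Both follow from testing fewer probes or a larger limit. Level 6, a loess trend and centring kept both counts within 1.5 times (648 to 802), though centring removed a median of only -0.005. For a limit of 1, a floor of 5 selects the same probes as level 6 (650 and 648). Level 4.5 could not change the counts of 784 and 811, since background lies near 4.1. The count beyond the GNP range was 1258 in the main setting, 1053 at level 6 and 966 against 3 times the SD of a difference. It was 1262 to 1297 without each GNP array in turn. It was 1130 without chromosome 6 and 1358 without NdpKO;Ptch+/- replicate 1 and NdpKO replicate 4 together, both alternatives added after the data were seen. Of 111 recomputed differences of 37 named genes 101 moved by less than the GNP replicate spread and none changed sign. Of 93 recomputed medians of 31 lists 78 did so and none that exceeded its spread changed sign, though level 6 took endothelial activation from -0.07 to 1.42, elastic fibres from 0.20 to 0.06, the Norrin and Wnt list from 0.00 to -0.14 and chemokines from -0.73 to -0.27, and the mean over probes took glycolysis from -0.01 to 0.17. The chromosome 6 median was -0.54 at level 5, -0.48 at level 8, -0.55 over all probes and -0.52 with the loess trend removed, alternatives added after the data were seen.

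In GNPs, 7 probes passed in limma (3927 at an unadjusted p under 0.05), 1 with only the 8 arrays of both genotypes, 35 of 11339 probes at 5 or above on at least 4 GNP arrays, 5 with the array of disagreeing labels as NdpKO, and 5 to 232 without each array in turn, 232 being without NdpKO;Ptch+/- replicate 1. With the replicate number as a block 1 probe passed, but the numbers did not pair the samples. The cause of these changes was not tested.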

Other observations

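Other lists described cells and programmes that differed little or rested on few measured genes. Of 10 measured oligodendrocyte and myelin genes Sox10, a lineage transcription factor, was higher at 8.16 in the Ptch+/- tumor and 9.25 in the NdpKO;Ptch+/- tumor, with a list median of 0.42, and Mbp, myelin basic protein, was at 9.42 and 9.12. Over 18 such markers the mean level was 6.42 and 6.63, both below the 7.60 to 8.75 of the GNP arrays. The mean over 14 Purkinje cell and interneuron markers was 5.17 and 5.08 (GNPs 6.53 to 7.11), with 12 below 5 in each tumor, and over 12 choroid plexus and ependyma markers 5.0 and 4.71 (GNPs 5.12 to 6.36), with 10 below 5 in each. Clic6 was thus high in a Ptch+/- tumor whose other choroid plexus markers were mostly at background. Hemoglobin genes had a median of 0.08 over 3 measured, and 12 of 13 lymphocyte markers and 13 of 14 neutrophil and monocyte markers were below 5 in both tumors.

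Interferon response genes had a median of -1.19 (-0.45 over those at 6 or above) with 3 of 5 lower, Ifit3 at 6.41 and 4.68 among them, and 2 of 5 measured chemokines and receptors were lower, Cxcl16 at 6.54 and 4.28. Hypoxia response genes had a median of 0.23 over 6, with Vegfa and Ankrd37 (4.17 and 5.44) higher. Glycolysis genes had a median of -0.01 over 11, where Eno2, neuronal enolase, was at 6.78 and 4.52 on chromosome 6 and Ldha, lactate dehydrogenase, at 11.34 and 11.53. No cholesterol gene of 10 measured passed 1, with a median of -0.29. Of 12 immediate-early and dissociation stress genes Egr3 and Fosl2 (10.59 and 9.24) were lower, while Egr1 was at 8.15 and 8.12 and Jun at 8.76 and 8.52.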
